A study of Mus musculus with 10 samples.

Results

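A group of 10 microRNA genes of the mouse was followed through the site lists of a Polycomb ChIP-seq study. They were Mir10a, Mir10b, Mir196a-1, Mir196a-2 and Mir196b of the Hox clusters, and Mir132, Mir212, Mir34a, Mir137 and Mir9-3 elsewhere in the genome. They are 10 of 1577 microRNA genes in the GENCODE vM1 annotation, were chosen by name, and were placed at their mm9 positions with 10 kb added on each side. A site belonged to a gene when it shared at least 1 bp with that window. The genes were picked because Polycomb sites were known at several of them in these data, so the counts below describe them and carry no test.

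ChIP-seq, which sequences the DNA pulled down with an antibody, was performed on mouse embryonic stem cells (ESCs). H3K27me3 and Suz12-TAP were profiled in BayGenomics gene trap line XG122 of genotype Suz12Suz12TAP/+, in which 1 Suz12 allele carries the TAP tag, with either scramble shRNA or Pcl3 shRNA. Pcl3-TAP was profiled in E14 ESC that expressed the tagged Pcl3 together with an shRNA against the wildtype Pcl3, shRNA6 or shRNA7. Of the 10 libraries 6 were ChIP and 4 were input DNA, each condition had 1 library, and the XG122 input for Pcl3 shRNA is labelled Pcl3-shRNA6. The Pcl3-TAP cells were clones in which the shRNA spares the tagged protein, and Suz12-TAP was expressed from its own locus. In such bulk samples fewer cells with bound Suz12 and less Suz12 bound per cell cannot be told apart. The lists held 8876 Suz12 sites (scramble shRNA), 5722 Suz12-depleted sites (lower with Pcl3 shRNA), 5242 Pcl3 sites and 678 H3K27me3-depleted sites, each with 1 p-value. They hold no read counts, so the depth behind a site is unknown and no fold change could be computed. All 5722 Suz12-depleted sites carried the position and the p of a Suz12 site, so that p measures binding in control cells and not the loss. Starts of 6 ESC genes were also compared with the Suz12 sites. Of these genes 1 (Esrrb, 2 of its 5 starts) had a start under one, while Pou5f1, Nanog, Zfp42, Tdgf1 and Dppa4 had none. This does not identify the cells, because most genes lack such a site. Of all 22379 protein-coding genes 32.0% had a Suz12 site even within 10 kb.

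Polycomb repressive complex 2 (PRC2) places the repressive mark H3K27me3 on histone H3. Suz12 is a core subunit that the complex needs for its activity, and Pcl3 is an accessory subunit of the Polycomb-like family. In ESCs the complex sits over CpG-rich starts of developmental genes, among them the Hox genes and microRNA genes that are switched on later in development. A microRNA acts as a short RNA that pairs with messages through its seed, bases 2 to 8, and lowers their translation and stability.

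The members encode 9 different mature microRNAs with 6 different seeds. The sequences below, from RefSeq (GRCm38.p6), are shown because 3 pairs or groups of members share a seed and so pair with the same stretch of a message. The seed is in capitals.
miR-10a-5p: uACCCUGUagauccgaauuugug
miR-10b-5p: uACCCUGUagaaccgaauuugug
miR-196a-5p: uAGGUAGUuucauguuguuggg
miR-196b-5p: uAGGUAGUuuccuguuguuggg
miR-132-3p: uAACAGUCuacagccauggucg
miR-212-3p: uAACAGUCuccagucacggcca
miR-34a-5p: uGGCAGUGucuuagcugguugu
miR-137-3p: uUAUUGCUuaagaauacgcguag
miR-9-5p: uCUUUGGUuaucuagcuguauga
Counted from the 5′ end, miR-10a and miR-10b differ by U12A, and miR-196a and miR-196b by A12C, both outside the seed. Mir196a-1 and Mir196a-2 give the same mature RNA from 2 chromosomes. miR-132 and miR-212 differ at 5 of 22 positions (A10C, C14U, U17C, U20C and G22A), again outside the seed.

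Stretches of DNA under the Suz12 sites are shown next. They were picked for their CpG and are richer in it than the whole sites discussed further on. They are the 300 bp richest in GCGCGC and then in CpG within the nearest Suz12 site, on the plus strand of mm9, with each CG in capitals. At Mir9-3 (chr7:86649846-86650145) the stretch ends just before the gene and holds 44 CpG. At Mir212 (chr11:74986737-74987036) it covers the gene and holds 34. At Mir10b (chr2:74563948-74564247) it covers the gene and holds 11. Per 100 bp the Mir9-3 stretch has 14.7 CpG against 4.98 in its whole site. The values are 11.3 against 6.53 at Mir212 and 3.67 against 1.74 at Mir10b.
Mir9-3: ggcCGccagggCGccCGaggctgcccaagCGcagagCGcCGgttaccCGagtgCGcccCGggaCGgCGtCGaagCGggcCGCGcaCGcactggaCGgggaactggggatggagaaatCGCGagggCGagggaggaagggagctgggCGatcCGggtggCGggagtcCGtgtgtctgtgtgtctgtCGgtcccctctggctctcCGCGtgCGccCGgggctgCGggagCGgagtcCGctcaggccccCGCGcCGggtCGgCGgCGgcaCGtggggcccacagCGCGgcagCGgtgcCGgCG
Mir212: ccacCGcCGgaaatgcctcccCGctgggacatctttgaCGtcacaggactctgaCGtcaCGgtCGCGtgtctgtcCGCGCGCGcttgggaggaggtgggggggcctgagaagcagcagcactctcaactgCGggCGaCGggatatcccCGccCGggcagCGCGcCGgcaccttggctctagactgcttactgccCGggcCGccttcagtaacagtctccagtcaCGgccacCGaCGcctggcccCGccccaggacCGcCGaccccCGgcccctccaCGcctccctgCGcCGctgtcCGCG
Mir10b: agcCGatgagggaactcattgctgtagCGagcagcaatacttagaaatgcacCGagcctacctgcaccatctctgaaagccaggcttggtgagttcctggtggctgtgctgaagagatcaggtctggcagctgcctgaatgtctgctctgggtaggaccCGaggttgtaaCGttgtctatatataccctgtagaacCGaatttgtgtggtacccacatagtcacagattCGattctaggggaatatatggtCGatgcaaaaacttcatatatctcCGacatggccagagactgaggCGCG
The Mir212 stretch holds TGACGTCA, the palindrome known as the cAMP response element, 2 times. In the 300 bp picked by the same rule from each of the 8876 Suz12 sites, these letters occurred in 0.845%, and they were in neither of the other 2 stretches. The motif was chosen after the Mir212 sequence was seen, and the match describes the sequence and not a bound factor.

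Mir34a alone had no site of any list within 10 kb. A Suz12 site lay in the window of 9 of 10 members, against 12.4% of the 1577 microRNA genes (195 genes). A Suz12-depleted site was also present at 9 of 10, against 8.50%. A Pcl3 site was present at 9 of 10, against 6.28%, and an H3K27me3-depleted site at 8 of 10, against 1.46% (23 genes). Mir137 joined Mir34a in having no H3K27me3-depleted site. That count of 8 fell to 4 with a window of 2 kb (0.634% of all microRNA genes) and to 3 with H3K27me3-depleted sites of p at most 1e-12 (0.444%). All 4 kinds of site were found at 8 members and at 9 of the remaining 1567 microRNA genes. Against the 510 microRNA genes in which a RefSeq hairpin was found, the background rose to 19.4%, 12.4%, 10.0% and 3.33% for the 4 lists, in the same order. Chromosome 11 carries 4 members. It held 198 of the 678 H3K27me3-depleted sites (29.2%) and 10.4% of the Suz12 sites. Off that chromosome 4 of 6 members had an H3K27me3-depleted site, against 0.809% of the microRNA genes there.

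**Figure D1:**
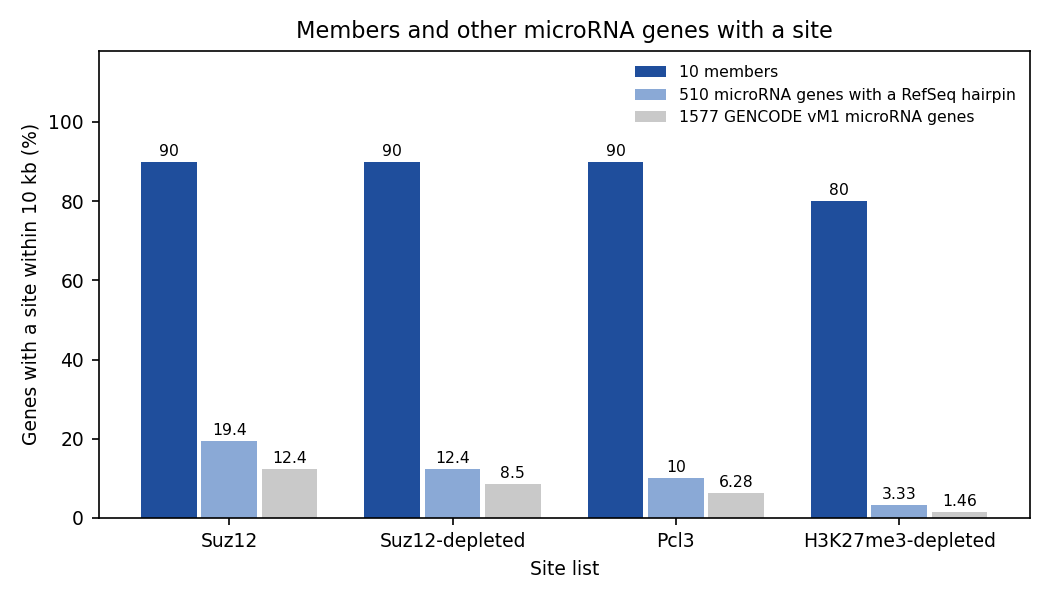
Percent of genes (y axis) with at least 1 site of each list (x axis) within 10 kb, for the 10 members, for 510 microRNA genes with a RefSeq hairpin and for all 1577 microRNA genes of GENCODE vM1. The members stand at 90% for 3 lists and at 80% for the H3K27me3-depleted list, and the background bars stay at or below 19.4%.

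The 5 Hox-embedded members lay in dense fields of sites. Their microRNAs are known to restrain Hox messages, and the genes are interspersed with the Hox genes themselves. Between 5 and 8 Suz12 sites fell in each window, and 51.4% to 89.3% of the window was covered by Suz12. Ranked by that covered length among the 1577 microRNA genes, Mir196b stood at 1, Mir196a-2 at 2, Mir10a at 4, Mir196a-1 at 7 and Mir10b at 8. Mir9-3 at 3 was the member outside the Hox clusters with the most covered length.

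Mir196b (chr6:52180080-52180164, minus strand) lay wholly within a Suz12 site of 7500 bp (52173751 to 52181250) whose p is written as 0. The gene overlaps an exon of 1 Hoxa9 transcript, and both Hoxa9 starts that lie upstream of it, 100 bp and 924 bp away, were under the same site. It is also exonic in the noncoding transcript RP23-329P9.11 and the pseudogene 9930038K12Rik. Their starts, 367 bp and 365 bp away, were under that site too. The window of Mir196b held 6 Suz12 sites, 3 of them with p written as 0, over the starts of Hoxa7, Hoxa9 and Hoxa10. Its 3 Pcl3 sites covered 96.8% of the window. The 2 H3K27me3-depleted sites were at the far ends, one that met the Suz12 site of Hoxa7 (6730 bp downstream, p 7.59e-08) and one over a Hoxa10 start (9387 bp upstream, p 3.47e-11). Hoxa7, Hoxa9 and Hoxa10 encode homeodomain factors that pattern the posterior body axis.

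Mir196a-2 (chr15:102803772-102803881, plus strand) lay in an intron of the noncoding transcript Gm20398, between Hoxc10 and Hoxc9. Its gene was wholly under a Suz12 site of 2100 bp with p 1.28e-140. The starts of Gm20398 and Hoxc10 were under another site 4772 bp upstream, and the Hoxc9 start was under one of 10550 bp that began 1370 bp downstream, both with p written as 0. One Pcl3 site of 29100 bp (102789651 to 102818750), the second widest of the 5242, covered the whole window. The H3K27me3-depleted site was 9222 bp upstream with p 1.25e-07, weaker than 98.7% of its list.

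Mir196a-1 (chr11:96126478-96126579, plus strand) lay between Gm53, a neighbouring gene upstream, and Hoxb9. It was the only member whose own gene was under an H3K27me3-depleted site (96124601 to 96127250, p 7.02e-21), and 1.92% of that list was stronger. A set of 5 H3K27me3-depleted sites covered 38.9% of its window, the largest covered length of any of the 1577 microRNA genes. Its 7 Suz12 sites did not touch the gene, the nearest ending 378 bp upstream (p 1.14e-41). One of them was over a Gm53 start (p 2.21e-51) and another over a Hoxb9 start (p written as 0). A Pcl3 site of 4100 bp (p 9.94e-116) covered the gene.

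Mir10a (chr11:96178479-96178588, plus strand) lies 481 bp after the start of a Hoxb4 transcript and within its exon. The Suz12 site over that start (96177551 to 96178550, p 9.30e-25) took in 72 of the gene's 110 bp. A stronger site of 4050 bp with p written as 0 began 113 bp after the gene. In all 8 Suz12 sites lay in the window, including 1 over a Hoxb3 start. The Pcl3 site here was the widest of its list at 81300 bp (96129151 to 96210450), with p written as 0. It ran over starts from Hoxb3 to Hoxb9 and reached the window of Mir196a-1 as well. The single H3K27me3-depleted site (p 6.59e-10) ended 1979 bp upstream.

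Mir10b (chr2:74564127-74564194, plus strand) lies in introns of Hoxd3 and Hoxd4 transcripts. It was wholly under a Suz12 site of 1150 bp (74563851 to 74565000, p 1.77e-26) that also held a Hoxd3 start. This site was absent from the depleted list. The depleted sites on either side ended 327 bp upstream (p 9.61e-35) and began 857 bp downstream, the latter over a Hoxd4 start (p 1.75e-144). A set of 4 Pcl3 sites covered 70.8% of the window, one of 7850 bp over the gene. The H3K27me3-depleted site (p 3.18e-08) ended 2177 bp upstream. Among members with a Suz12 site over their own gene, Mir10b was the one where that site was not in the depleted list. Absence from that list does not show that the site kept Suz12.

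**Figure D2:**
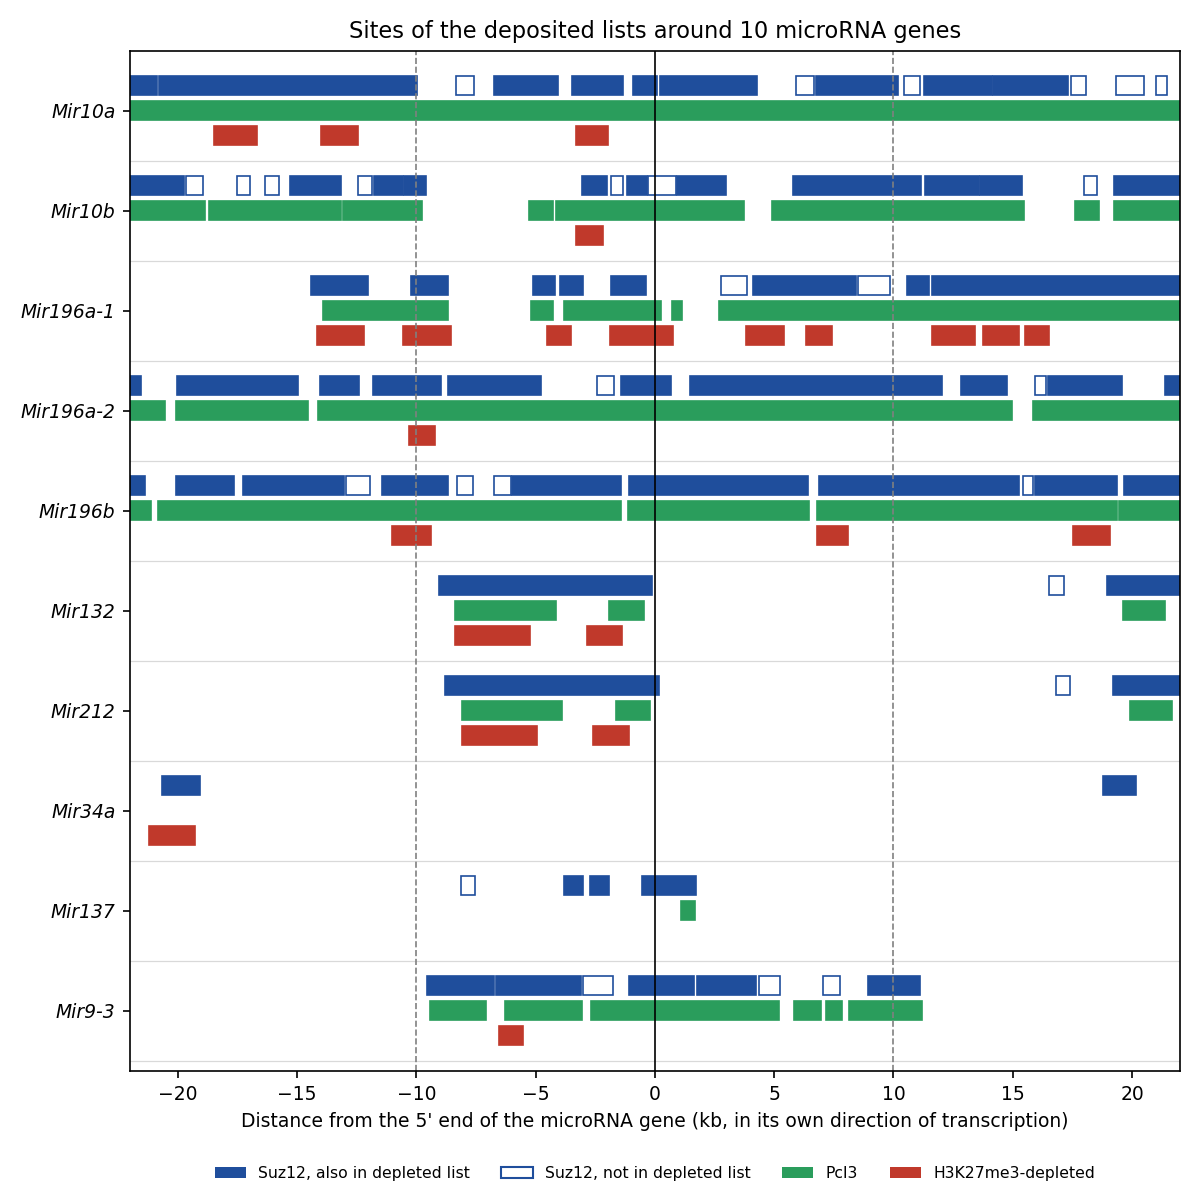
Position of the deposited sites around each member (rows), as distance in kb from the 5′ end of the microRNA gene in its own direction of transcription, with the 10 kb window between dashed lines. Blue bars are Suz12 sites, filled where also in the depleted list and open where not, green bars are Pcl3 sites and red bars H3K27me3-depleted sites. Suz12 sites cover 51.4% to 89.3% of the windows of the Hox-embedded members and 77.6% of that of Mir9-3. Mir34a has sites only beyond the dashed lines.

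Mir132 and Mir212 are neighbours that neurons transcribe together in response to activity. Mir212 (chr11:74986890-74986980) and Mir132 (chr11:74987167-74987267), both on the plus strand, lie in introns of the lincRNA 1700016P03Rik, 828 bp and 1105 bp after its start. Their windows overlap and held the same sites, so they count as 1 locus. A single Suz12 site of 8950 bp (74978101 to 74987050, p written as 0) reached from Hic1, which encodes a zinc finger repressor, across the start of 1700016P03Rik. It covered all of Mir212 and ended 117 bp before Mir132. It was in the depleted list. One Pcl3 site lay over a Hic1 start (p 3.59e-159) and a weaker one over the 1700016P03Rik start (p 7.49e-27). The stronger of 2 H3K27me3-depleted sites was likewise at Hic1 (3150 bp, p 2.67e-20), and the one nearer to the microRNAs ended 1090 bp before Mir212 (p 3.89e-11). The host gene start was thus under Suz12 and Pcl3 sites, and not under an H3K27me3-depleted one.

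Mir9-3 encodes miR-9, a neural microRNA, and lies in an intron of the lincRNA AI854517. It is listed in GENCODE vM1 under another name (chr7:86650150-86650239, plus strand) and was identified by its RefSeq hairpin. Its gene was wholly under a Suz12 site of 2750 bp with p 2.69e-266, and 6.08% of the list was stronger. The start of AI854517, 5147 bp upstream, was under a further site of 3550 bp (p 8.76e-237), and its second start was under one 8862 bp downstream (p 9.84e-151). A set of 6 Pcl3 sites covered 85.8% of the window, with 1 of 7900 bp over the gene. The H3K27me3-depleted site (p 9.36e-08) was 5550 bp upstream, and 94.8% of its list was stronger.

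Mir137 (chr3:118136761-118136862, plus strand), whose microRNA acts in neuronal differentiation, had no annotated gene start in its window. It was wholly under a Suz12 site of 2300 bp (118136201 to 118138500, p 4.17e-83). The 3 weaker Suz12 sites of this window lay 1911 bp, 3011 bp and 7561 bp upstream, with p between 2.12e-16 and 2.39e-09. The Pcl3 site, of 600 bp (p 3.95e-12), lay 989 bp downstream and covered 2.98% of the window, the least among the 9 bound members. The nearest H3K27me3-depleted site on the chromosome was 16319411 bp away.

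Mir34a (chr4:149442563-149442664, plus strand) encodes a microRNA induced by p53. The nearest Suz12 sites lay on both sides at almost equal distances, one over the Gpr157 start 18687 bp downstream (p 4.48e-38) and one 19063 bp upstream (149421901 to 149423500, p 3.61e-47). The upstream site held the start of Gm13067, a noncoding transcript on the same strand. Both sites were in the depleted list. An H3K27me3-depleted site (149421351 to 149423300, p 4.15e-16) overlapped the upstream one. The nearest Pcl3 site was 34613 bp upstream (450 bp, p 9.62e-10). With a window of 20 kb Mir34a joined the members with Suz12, Suz12-depleted and H3K27me3-depleted sites.

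The primers that the study used for ChIP at 5 of these loci were matched to mm9, and they show how far a promoter amplicon can be from the microRNA it is named for. To find microRNAs targeted by Suz12 the study used an earlier annotation of microRNA promoters, whereas the windows here were laid around the genes. The mir-34a amplicon, chr4:149422574-149422862, lies 19701 bp upstream of Mir34a and 260 bp before the Gm13067 start. The mir-196b amplicon, chr6:52180119-52180348, begins within Mir196b and holds a Hoxa9 start. Both are printed from the plus strand of mm9, with the primer sites in capitals.
mir-34a amplicon: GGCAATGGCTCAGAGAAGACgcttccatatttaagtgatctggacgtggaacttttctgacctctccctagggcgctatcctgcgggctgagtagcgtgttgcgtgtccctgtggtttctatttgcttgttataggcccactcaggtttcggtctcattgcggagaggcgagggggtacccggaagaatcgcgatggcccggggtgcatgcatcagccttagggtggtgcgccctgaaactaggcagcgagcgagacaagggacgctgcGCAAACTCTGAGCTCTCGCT
mir-196b amplicon: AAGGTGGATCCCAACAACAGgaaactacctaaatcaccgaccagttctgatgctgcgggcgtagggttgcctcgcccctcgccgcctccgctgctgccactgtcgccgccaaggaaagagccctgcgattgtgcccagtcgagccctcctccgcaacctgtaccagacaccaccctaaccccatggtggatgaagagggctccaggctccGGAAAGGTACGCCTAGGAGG
The mir-10a amplicon lies 2040 bp upstream of Mir10a, the mir-196a amplicon 3552 bp upstream of Mir196a-1 at a Gm53 start, and the mir-132/mir-212 amplicon 413 bp upstream of Mir212 near the start of 1700016P03Rik. All 5 amplicons were within a Suz12-depleted site. A Pcl3 site covered 4 of them, the exception being mir-34a, and an H3K27me3-depleted site covered 3, the exceptions being mir-196b and mir-132/mir-212. The study tested loci including these 5 by ChIP and PCR, and reports decreases in Suz12 and H3K27me3 after Pcl3 knockdown. Absence from the H3K27me3-depleted list therefore does not show that an amplicon kept the mark.

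At 8 of the 9 bound members a Suz12 site in the window lay over an annotated start, and Mir137 was the exception. Of the 10 members 7 lie inside an annotated transcript of their own strand (Hoxb4, Hoxd3 and Hoxd4, Gm20398, Hoxa9, 1700016P03Rik for 2 members, and AI854517). For 6 of them the start of such a transcript in the window was under a Suz12 site and a Pcl3 site. The exception was Mir10b. Of the starts of the transcripts around it, that of Hoxd4, 4092 bp upstream, was under a Pcl3 site but not a Suz12 site, and that of Hoxd3, 14141 bp upstream and outside the window, was under both. For 0 of the 7 was such a start under an H3K27me3-depleted site, from a list of only 678 sites. For these counts by start no share over all microRNA genes was computed, so they describe the members only. Of the 46 distinct Suz12 sites at the members 19 (41.3%) held an annotated start, against 57.2% of all 8876 sites. The microRNA gene itself was touched by a Suz12 site at 7 of 10 members, against 3.68% of the 1577 microRNA genes. A Suz12-depleted site touched it at 6 (3.36%), a Pcl3 site at 6 (2.35%) and an H3K27me3-depleted site at 1 (0.254%).

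The 46 Suz12 sites at the members spanned nearly the whole range of the list. Their median −log10 p was 83.5 (quartiles 20.5 and 223), against 26.2 (12.2 and 74.5) over all Suz12 sites, with p written as 0 placed at the largest value, 307. Of the 46 sites 10 (21.7%) had p written as 0, against 4.90% of all sites, and 9 of those 10 were at the Hox-embedded members. The weakest was at Mir137 (p 2.39e-09), weaker than 89.6% of the list. Sites were wider too, with a median of 1800 bp against 1100 bp. The Hox sites (33) and the others (13) had close medians, 84.7 and 82.4, while the upper quartiles were 307 and 181. Each site has 1 p from 1 library pair, so the spread between replicates of these values is not known.

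**Figure D3:**
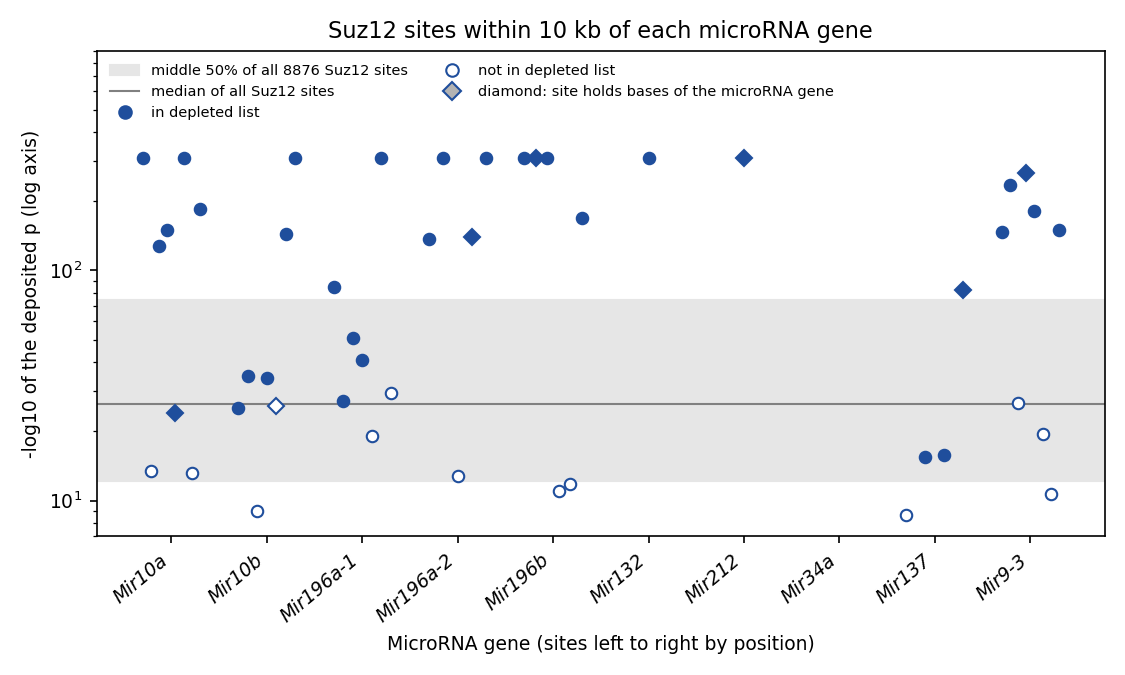
The −log10 of the deposited p (log axis) of each Suz12 site within 10 kb of each member, ordered by position, filled where the site is also in the depleted list. The grey band and line are the middle 50% (12.2 to 74.5) and the median (26.2) of all 8876 Suz12 sites, and diamonds are sites that hold bases of the microRNA gene. Strong sites are all filled, open ones lie at 29.2 or below, and Mir34a has none.

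The depleted list took in 33 of the 46 sites (71.7%), close to the 64.5% over all Suz12 sites. Whether a site was in it went with its strength. All 4 member sites with a −log10 p between 40 and 100 and all 22 at 100 or more were in the depleted list, as were 98.6% and 100% of all sites of those strengths. Between 20 and 40 it held 5 of 8 member sites against 82.2% of all, and between 10 and 20 it held 2 of 10 against 37.3%. Neither of the 2 weaker member sites was in it, against 4.96%. The study gives as a possible reading that a change in Suz12 is harder to detect at weaker sites, which was not tested here. Absence from the list does not show that a site kept Suz12. The 13 sites left out were found at Mir9-3 (3 sites), at Mir10a, Mir10b, Mir196a-1 and Mir196b (2 each), and at Mir196a-2 and Mir137 (1 each). The strongest of them lay 8422 bp downstream of Mir196a-1 (p 6.16e-30). A Pcl3 site overlapped 12 of the 13 and an H3K27me3-depleted site overlapped 1. With no size of loss in the lists, the members cannot be ordered by how much Suz12 they lost.

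Pcl3 met 43 of the 46 sites (93.5%), against 44.3% of all Suz12 sites. The 3 sites without it were the upstream ones at Mir137. These overlaps are not separate events. A single Pcl3 site of 81300 bp met all 8 Suz12 sites at Mir10a, and one of 29100 bp met all 5 at Mir196a-2. Pcl3 overlap rose with strength in the whole list, to 97.7% of the sites with a −log10 p of 100 or more, and all 22 member sites of that strength had it. Of the weaker member sites 8 of 8 had it between 20 and 40, against 32.9% of all, and 8 of 10 between 10 and 20, against 16.2%. The value depended on the overlap rule. With centers within 2 kb in place of shared bases it was 47.8%, against 44.9% of all, and with centers within 500 bp it was 15.2% against 35.6%. All 33 Hox sites shared bases with Pcl3, and 10 of the 13 others did. The 22 distinct Pcl3 sites at the members had a median width of 3700 bp, against 850 bp for the list.

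An H3K27me3-depleted site overlapped 14 of the 46 (30.4%), against 6.89% of all Suz12 sites. Of those 14 sites 12 were at Hox-embedded members. Without chromosome 11 the share was 16.7% of 30 sites, against 5.64%. Stronger Suz12 sites overlapped such a site more often in the whole list too, at 17.5% of those with a −log10 p of 100 or more, and 8 of 22 member sites of that strength did. All 13 distinct H3K27me3-depleted sites at the members shared bases with a Suz12 site, and their median −log10 p of 9.18 was near that of the list, 8.49.

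The members' Suz12 sites were poorer in CpG than the list as a whole. The median was 2.98 CpG per 100 bp (0.286 to 6.53) over the 46 sites, against 5.41 over all Suz12 sites. The Hox sites had 2.74 and the others 3.78, the highest being the site of Mir132 and Mir212 at 6.53. The lowest, 0.286, was a weak site upstream of Mir196b. Within each class of strength the members were lower, at 3.57 against 5.41 for a −log10 p of 100 or more and at 1.69 against 5.38 between 10 and 20. Sites outside the depleted list had 1.33, and those within it 3.37. GCGCGC, a palindrome that reads alike on both strands, was present in 11 of the 46 (23.9%), against 52.5% of all sites. At a −log10 p of 100 or more it was present in 10 of 22, against 82.7%. These are whole sites of unequal length, and the members' sites were the wider ones. With equal lengths, 500 bp around each center, the members were lower too. Their median was 3.0 CpG per 100 bp against 7.0 over all sites, and GCGCGC was present in 6.52% against 37.5%.

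**Figure D4:**
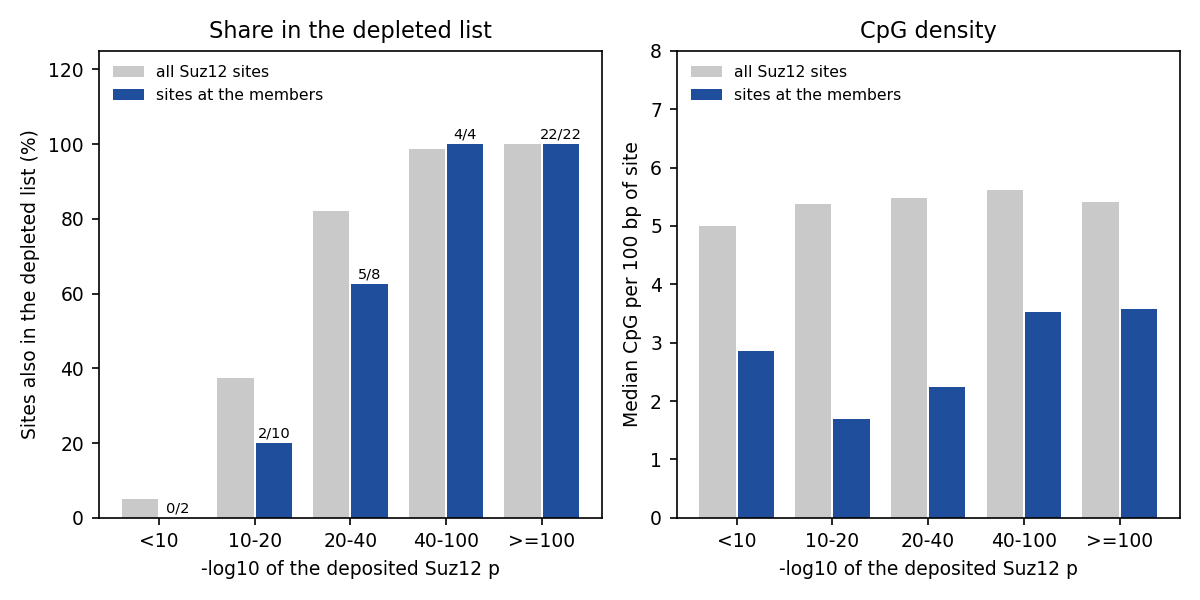
Suz12 sites in 5 classes of −log10 of the deposited p (x axis), for all sites (grey) and for the 46 sites at the members (blue). The left panel gives the percent also in the depleted list, with counts above the blue bars, and the right panel the median CpG per 100 bp. Both colors reach 100% in the strongest class, and the blue bars for CpG are lower in every class.

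Further sets of microRNA genes were read in the same way. Of 40 located microRNA genes of other lineages (muscle, blood, epithelium, neurons and others), 18 (45.0%) had a Suz12 site, 15 (37.5%) a Suz12-depleted site, 7 (17.5%) a Pcl3 site and 2 (5.00%) an H3K27me3-depleted site. Over all 1577 microRNA genes these shares were 12.4%, 8.50%, 6.28% and 1.46%. Of these genes 8 had sites of 3 or 4 lists. They were Mir124a-1, Mir124a-3 and Mir129-2 of neurons, Mir375 of pancreatic islets, Mir203 of skin, Mir142 of blood, Mir193 and the Hoxc microRNA Mir615. Mir193 alone had all 4. The neighbours Mir183, Mir96 and Mir182 on chromosome 6 were each counted among the 18 and the 15. They are not separate loci. A further list, drawn up for ESCs, held 22 microRNA genes, whose expression was not measured here. Of these 6 had a Suz12 site, all in the Mir17 to Mir92-1 cluster on chromosome 14 and so from 1 site. The same 6 (27.3%) had a Pcl3 site. None of the 22 (0) had a Suz12-depleted or an H3K27me3-depleted site. The Mir290 to Mir295 cluster, listed for ESCs, and the Mir302 to Mir367 cluster, listed for pluripotent cells, had no site of any list.

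The 5 located genes outside the group that share a member's seed were all bound. They were Mir9-1 and Mir9-2, which encode the same miR-9 as Mir9-3, and Mir34b, Mir449a and Mir449c, which share the miR-34a seed. Each had Suz12, Suz12-depleted and Pcl3 sites within 10 kb, against 12.4%, 8.50% and 6.28% of all 1577 microRNA genes. None had an H3K27me3-depleted site. The nearest sites of Mir449a and Mir449c were the same in each list, so these neighbours are not separate loci. Mir9-1 (p written as 0) and Mir34b (p 3.15e-43) were under a Suz12 site, and the Suz12 site nearest to Mir449a and Mir449c (p 3.84e-77) lay over the start of Cdc20b. Mir34a, with no site within 10 kb, thus shared its seed with 3 microRNA genes that had one close by.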

How the data were processed

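The authors aligned reads to mm9 with Bowtie (version not given in the sources used here), kept unique alignments, scaled paired libraries to equal background and compared running windows with the Skellam distribution. They deposited 4 lists of joined sites with 1 p-value each, and no other measured value of the study was used. Whether the 2 Pcl3-TAP libraries were pooled is not stated in the sources used here. The largest p in a list was 1.04e-06. P-values written as 0 (435 Suz12 and 208 Pcl3 sites) were placed at the largest −log10 value.

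Windows of 10 kb were laid around the genes (GENCODE vM1). All 10 RefSeq hairpins matched the mm9 sequence of their gene exactly, and 510 of the 1577 microRNA genes held a RefSeq hairpin. Comparison genes missing from vM1 were placed by synonym or hairpin. Coordinates are 1-based. The members and lists were chosen with earlier results of these data known, and the strength classes were added after the site values were seen. The text names all members, most genes with a start under a Suz12 site in their windows, seed relatives, comparison genes with 3 or 4 kinds of site, and the study's amplicons. The cAMP response element was chosen after the sequence was seen. With 1 library per condition no test was run. The alternatives were other windows, p cutoffs, site centers, merged windows, width and no chromosome 11. Overlap functions were tested on simulated data. Sequences were read with samtools 1.23.1 and pysam 0.24.0, tables with pandas 2.3.3 and numpy 2.4.6, and plots were drawn with matplotlib 3.10.9 in Python 3.11.15.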

Additional observations from a re-analysis of the deposited data

How the results depend on the processing

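Of 55 alternative values 42 stayed close to the reported one. This count says little, because several of them could not differ. The members' counts stay the same under another background, and depleted sites have the exact positions of Suz12 sites under any overlap of bases. Counts of 9 of 10 had little room to rise, while the background had. With a window of 50 kb a Suz12 site was at 10 of 10 members and at 31.4% of all microRNA genes. Without chromosome 11 the members with a Suz12, a Suz12-depleted and a Pcl3 site were 5 of 6 each, and with an H3K27me3-depleted site 4 of 6, which follows from the fewer genes. The H3K27me3-depleted count depended most on the settings, at 4 of 10 members with a window of 2 kb (0.634% of all microRNA genes), 5 with 5 kb (0.761%), 4 with p at most 1e-10 (0.634%) and 3 with p at most 1e-12 (0.444%). The share of Suz12 sites with Pcl3 was 47.8% with centers within 2 kb and 15.2% within 500 bp, and that with H3K27me3 loss 8.70% with centers within 500 bp and 16.7% without chromosome 11. The lineage microRNAs with a Suz12 site were 11 of 40 with a window of 2 kb, an alternative chosen after seeing the data. No paired analysis was possible because each condition had 1 library and the lists hold no values per library. No depth is known for any site, so an absent site may be one that was not detectable.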
